A study of Homo sapiens with 36 samples.

Results

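HK-2 is an immortalised line of human renal proximal tubular epithelial cells. The series holds 36 expression arrays of this line in 2 sets, each with vehicle cultures of its own: one set was exposed to CdCl or Di for 12 or 48 h, the other to a high or a low dose of Kbr for 24 or 48 h. The 6 vehicle arrays at 48 h were compared with each other, 3 from the CdCl and Di set and 3 from the Kbr set, picked by their labels and by no measured value. None of these 6 cultures received a test compound. All were grown in a defined medium with EGF, hydrocortisone, insulin, transferrin and selenite, seeded at one stated density 24 h before exposure and dosed near confluence. The labels give neither the vehicle of each set nor a date, passage or batch. The set therefore stands for everything that differed between the 2 experiments, and batch and state of the cells cannot be told apart in any difference given here. Replicates are labelled as biological, with no word on what made them separate, so the p-values measure the spread between cultures of one line. The fit pooled this spread over all 12 groups of the series, exposed ones included. The p-values and standard errors therefore do not measure the spread of the 6 vehicle cultures alone.

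Cells that fold many secreted proteins answer a load of unfolded protein in the endoplasmic reticulum (ER) with the unfolded protein response. The sensors IRE1 and ATF6 raise ER chaperones, partly through the factor XBP1, while PERK slows translation and raises the factor ATF4. ATF4 drives genes of amino acid supply and, through DDIT3 (CHOP), of stress-induced death, and other kinases that sense amino acid shortage or haem feed the same factor. Proliferating epithelial cultures carry the transcripts of DNA replication and mitosis, which decline as cells leave the cycle. Tubular cells are known to use all of these programmes after injury.

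The sets differed widely at 48 h. Values are log2 expression values after GCRMA normalization, differences are the Kbr set minus the CdCl and Di set with their standard error (SE) from the fit, and a gene was called at an adjusted p under 0.05 (limma, Benjamini-Hochberg over 11092 genes). Of the 11092 genes, 5659 were called, or 51.0%, with 2964 higher in the Kbr set (26.7%) and 2695 lower (24.3%). At least a 2-fold difference was found for 1396 of the called genes, and the median over all genes was 0.01. The 3 arrays of one set lay wholly above or below those of the other for 6472 genes, or 58.3%, and for 5347 of the called ones. Pairs of arrays within the CdCl and Di set correlated at 0.993 to 0.995 across genes, pairs within the Kbr set at 0.988 to 0.990, and pairs across the sets at 0.950 to 0.960. The median SD of a gene was 0.11 among the 3 CdCl and Di arrays and 0.18 among the 3 Kbr arrays.

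Array readings outside the genes moved with the set as well. The 3 prime minus 5 prime difference of the beta-actin control probe sets, a sign of RNA integrity and labelling, was 1.56, 1.58 and 1.36 in the CdCl and Di set and 0.80, 1.11 and 0.79 in the Kbr set. The mean difference was -0.60 (exact permutation test, two-sided, p = 0.1, the smallest that 3 against 3 allows), while for GAPDH it was -0.03 (exact p = 0.5). Probe sets for 18S ribosomal RNA averaged 9.90 ± 0.34 (SD, n = 3) and 7.79 ± 0.24, spiked labelling controls 6.72 ± 0.10 and 8.37 ± 0.28, and hybridization controls 11.27 ± 0.05 and 11.23 ± 0.28. The part of these readings in the gene differences was not tested. Of 2946 called genes with several probe sets, 2141 (72.7%) had all of them in one direction, against 50.6% of 2528 genes that were not called. The first Kbr replicate stood apart from the other 2 in ATF4 targets, and results that rest on it are given with and without it.

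The cells showed a partial proximal tubule profile in both sets. A value of 4 was used as the floor of detection. Of 32 proximal tubule markers on the array, 10 were above 4 on all 6 arrays, among them SLC3A1, CLDN2 and ABCB1, while LRP2, CUBN, AQP1 and SLC34A1 were below it. Of the markers of other cells, 2 of 12 distal nephron, 4 of 10 fibroblast, 0 of 10 endothelial and 0 of 8 leukocyte genes were above the floor on all 6 arrays. The mean of the fibroblast list lay at 4.95 to 4.97 in the CdCl and Di set and at 5.13 to 5.22 in the Kbr set. PDGFRA, PDGFRB, COL1A2 and COL3A1 were below the floor, whereas DCN (0.78 ± 0.15) and LUM (0.81 ± 0.26) were called higher in the Kbr set. LUM was no longer called without the third Kbr replicate (adjusted p = 0.0719). These are bulk RNA values, so fewer cells of a kind and less RNA per cell cannot be told apart.

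ER chaperones and folding factors set the cultures apart more uniformly than any other list with measured members. All 19 measured members of a list of 20 ER chaperones and XBP1 or ATF6 targets were lower in the Kbr set. None of them overlapped between the groups. Of all genes, 24.3% were called lower and 58.3% had no overlap. The list had a median of -2.30 and a difference of at least 2-fold in 16. SDF2L1, a cofactor of ER chaperones, read 11.23, 11.15 and 11.26 in the CdCl and Di set and 5.92, 5.98 and 5.99 in the Kbr set. This was a difference of -5.25 ± 0.53, or 38.0-fold (adjusted p = 7.54e-09), the lowest difference of all genes. HSPA5 (BiP, the master chaperone of the ER lumen) read 15.42, 15.40 and 15.28 against 13.04, 12.72 and 12.92, 5.54-fold lower in the Kbr set (-2.47 ± 0.28, adjusted p = 5.41e-08). A second HSPA5 probe set averaged 10.44 against 5.86, a larger difference of -4.58 (limma over probe sets, adjusted p = 6.06e-08). Both groups of arrays were tight for these genes, and no Kbr array came near a CdCl and Di array.

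**Figure D1:**
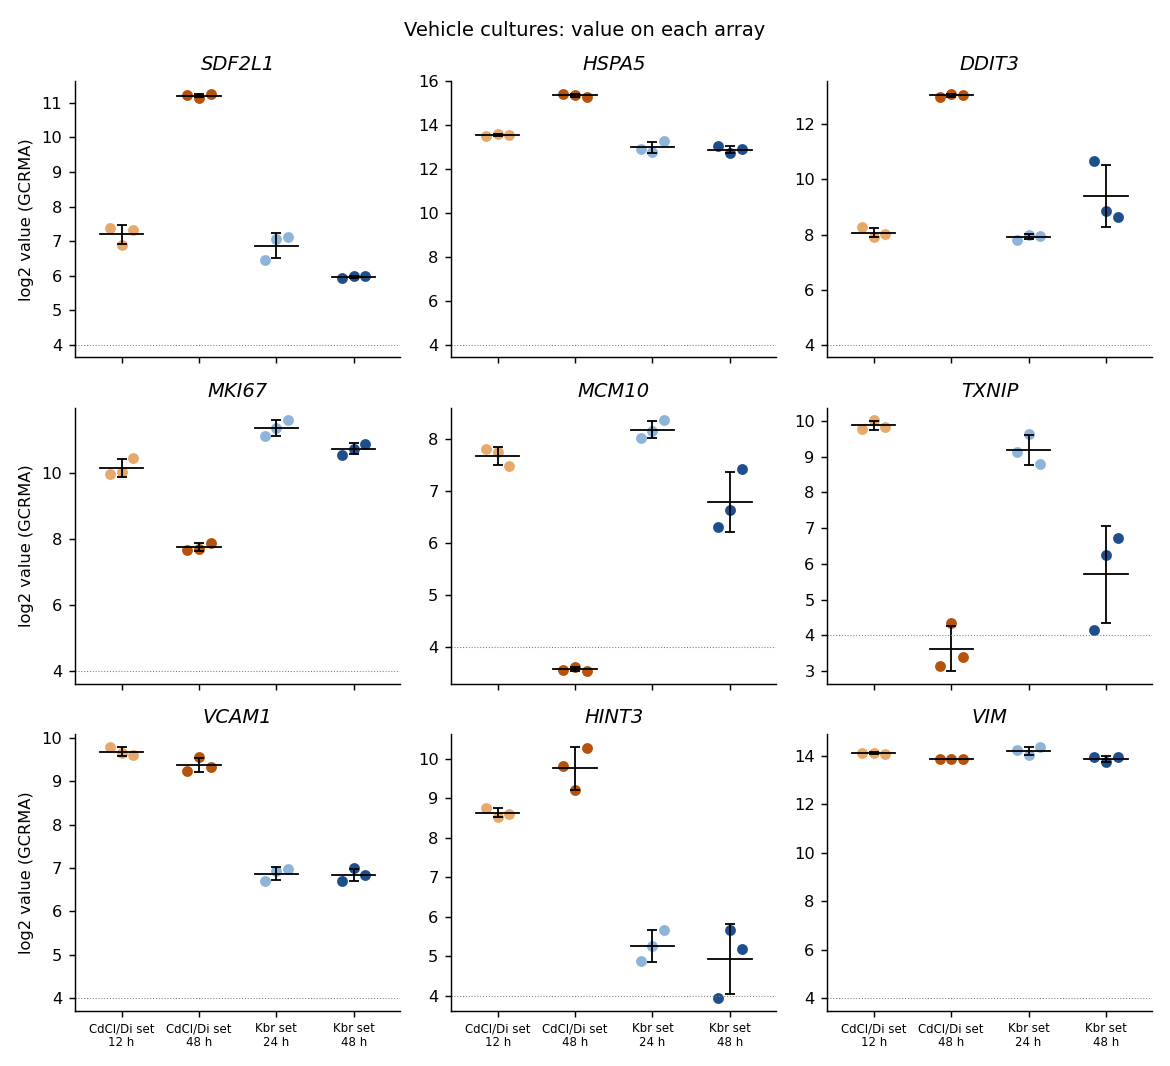
Log2 values of 9 genes on each of the 12 vehicle arrays, by set and time, with a bar at the mean, whiskers of 1 SD (n = 3) and a dotted line at the floor of 4. SDF2L1, HSPA5 and DDIT3 were high in the 48 h cultures of the CdCl and Di set, MKI67 and MCM10 were low there, VCAM1 and HINT3 differed between the sets at both times, and VIM was called in neither comparison.

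Other members of the list were lower in the Kbr set as well. CRELD2, a secreted ER stress protein, read 12.77, 12.70 and 12.90 against 9.28, 9.29 and 9.37, a difference of -3.48 ± 0.37. DNAJC3 (P58IPK), which restrains PERK, differed by -3.14 ± 0.38, and DNAJB9 (ERdj4), which returns IRE1 to its resting state, by -3.12 ± 0.44. The adjusted p-values of these 3 genes ranged from 1.39e-08 to 1.70e-06. The smallest differences in the list were those of the translocon subunit SEC61B (-0.85 ± 0.08) and the lectin chaperone CALR (-0.93 ± 0.20). XBP1 itself differed by -1.70 ± 0.30, but its probe sets did not move alike, and their mean gave -0.47 (adjusted p = 0.0860). A pair of selenoproteins of the ER membrane that take part in disposal of misfolded proteins, SELENOK (-1.79 ± 0.19) and SELENOS (-1.30 ± 0.12), were also lower. Among all 14 measured selenoproteins and related genes, however, 3 were called higher and 4 lower, beside 26.7% and 24.3% of all genes.

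Promoters of the list were searched for the classical ER stress element, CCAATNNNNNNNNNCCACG, on both strands of the 250 bases before each RefSeq gene start (GRCh38.p14). It was found in 5 of 18 list promoters (27.8%), in 13 of 9184 promoters of measured genes (0.142%) and in 22 of 27305 promoters in all (0.0806%). A match is a description of letters and not a shown site. Of the 5, the promoters of 4 members are shown, with the element in capitals (read on the opposite strand in CRELD2 and at the second place in HSP90B1); the windows are chr9:125241344-125241593 (HSPA5, minus strand), chr12:103930160-103930409 (HSP90B1, plus), chr22:28800570-28800819 (XBP1, minus) and chr22:49918384-49918633 (CRELD2, plus). HSP90B1 (GRP94), named for its 2 matches after its value was seen, differed by -1.34 ± 0.18.
HSPA5: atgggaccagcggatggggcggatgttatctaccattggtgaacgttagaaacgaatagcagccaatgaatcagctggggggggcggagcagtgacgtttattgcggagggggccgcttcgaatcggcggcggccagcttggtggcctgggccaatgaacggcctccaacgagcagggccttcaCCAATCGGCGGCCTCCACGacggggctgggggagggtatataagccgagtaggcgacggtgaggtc
HSP90B1: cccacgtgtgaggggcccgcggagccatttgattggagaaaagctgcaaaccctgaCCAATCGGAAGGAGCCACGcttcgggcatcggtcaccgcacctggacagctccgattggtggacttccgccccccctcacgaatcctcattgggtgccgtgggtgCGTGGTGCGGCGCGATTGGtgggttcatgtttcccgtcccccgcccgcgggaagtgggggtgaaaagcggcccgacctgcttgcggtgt
XBP1: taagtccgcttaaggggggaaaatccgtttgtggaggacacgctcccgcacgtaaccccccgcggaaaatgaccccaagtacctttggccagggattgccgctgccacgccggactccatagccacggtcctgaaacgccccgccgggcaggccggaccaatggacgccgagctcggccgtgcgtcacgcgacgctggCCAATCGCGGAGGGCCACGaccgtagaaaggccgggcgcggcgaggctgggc
CRELD2: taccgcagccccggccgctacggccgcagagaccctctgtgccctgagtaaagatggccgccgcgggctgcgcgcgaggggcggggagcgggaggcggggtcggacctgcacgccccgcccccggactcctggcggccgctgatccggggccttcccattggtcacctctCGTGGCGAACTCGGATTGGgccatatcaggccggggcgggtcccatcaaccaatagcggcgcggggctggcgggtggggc

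SDF2L1, DNAJC3 and DNAJB9, which were also lower in the Kbr set, held no such run of letters in this window.

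ATF4 targets were lower in the Kbr set to a similar degree. Of 29 measured genes of a list of 30 ATF4 targets and amino acid response genes, 25 were lower in the Kbr set and 0 higher. This stands beside 24.3% and 26.7% of all genes. The median was -1.66 against 0.01 over all genes. DDIT3, the stress-induced factor CHOP, read 13.00, 13.11 and 13.06 in the CdCl and Di set and 10.68, 8.86 and 8.64 in the Kbr set. All 3 Kbr arrays were below all CdCl and Di arrays, with the first clearly above the other two. The difference was -3.67 ± 0.58 (adjusted p = 8.36e-06), and -4.31 without that replicate. ATF3, a factor induced by ATF4, read 9.89, 9.96 and 10.10 against 6.71, 5.02 and 4.86 (-4.45 ± 0.69, and -5.04 without the first Kbr replicate). The 4 measured members that did not pass were DDIT4, SLC38A2, VLDLR and PSAT1, with differences from -0.30 to -0.06.

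Enzymes and transporters of amino acid and one-carbon metabolism made up most of the list. ALDH1L2, the mitochondrial folate dehydrogenase, read 9.28, 9.18 and 8.88 against 4.26, 4.59 and 4.72, 24.1-fold lower in the Kbr set. ASNS, asparagine synthetase, differed by -2.44 ± 0.41 (adjusted p = 1.63e-05), and the cystine transporter SLC7A11 by -2.44 ± 0.43. NUPR1, a small stress-induced chromatin protein, read 7.52, 8.11 and 7.75 against 4.14, 2.87 and 3.02; the Kbr mean was under the floor, so the fold was at least 13.8. TRIB3, the pseudokinase that feeds back on ATF4, differed by -1.45 ± 0.22. CHAC1, which degrades glutathione, overlapped between the sets: it read 6.87, 6.96 and 6.05 against 6.80, 4.23 and 4.001, and its difference of -1.61 ± 0.51 was -2.51 without the first Kbr replicate. It was not called without the second (adjusted p = 0.0682) or the third (adjusted p = 0.0947). The list count of 25 lower was the same without that replicate. The mean level of the 29 genes per array was 10.84, 10.88 and 10.81 in the CdCl and Di set and 9.59, 8.77 and 8.77 in the Kbr set.

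The amino acid response element TGATGNAA, searched in the same way, was present in 3 of 24 promoters of the ATF4 list (12.5%) in 1 of 18 promoters of the ER list (5.56%), in 129 of 9184 promoters of measured genes (1.40%) and in 870 of 27305 promoters in all (3.19%). The promoter of ASNS, one of the 3, is shown with it in capitals (chr7:97872409-97872658, minus strand, GRCh38.p14).
ASNS: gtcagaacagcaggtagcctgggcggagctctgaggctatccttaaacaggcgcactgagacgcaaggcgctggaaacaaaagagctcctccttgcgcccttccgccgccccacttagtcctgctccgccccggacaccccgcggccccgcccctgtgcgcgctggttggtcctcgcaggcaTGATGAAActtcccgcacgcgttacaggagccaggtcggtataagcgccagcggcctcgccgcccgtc

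Of the 15 lowest differences, 7 more belonged to LAMP3, SCG5, IL20RB, ERO1B, DNAJC12, INHBE and BEX2, which are on neither list, and 3 of these 7 had a Kbr mean under the floor. LAMP3, a lysosomal membrane protein, read 6.64, 6.55 and 6.64 against 2.33, 2.33 and 2.34, at least 6.11-fold lower. SCG5, a chaperone of prohormone processing, read 6.27, 6.41 and 6.55 against 2.53, 2.55 and 2.58, at least 5.32-fold lower. IL20RB, a cytokine receptor chain, was the third of these, at least 6.13-fold lower. ERO1B, an ER oxidase, differed by -4.17 ± 0.50, the co-chaperone DNAJC12 by -3.69 ± 0.43, the inhibin chain INHBE by -3.88 ± 0.70 and BEX2 by -3.77 ± 0.37. The 15 were picked among called genes without overlap between the groups, so the lack of overlap in these 7 follows from the choice. Lysosome and autophagy genes were lower in 7 and higher in 4 of 17 (median -0.20), beside 24.3% and 26.7% of all genes. WIPI1 (-1.79 ± 0.16), MAP1LC3B (-1.10 ± 0.16) and ULK1 (-1.16 ± 0.24) were among the lower ones, and ATG9A (1.18) was higher.

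**Figure D2:**
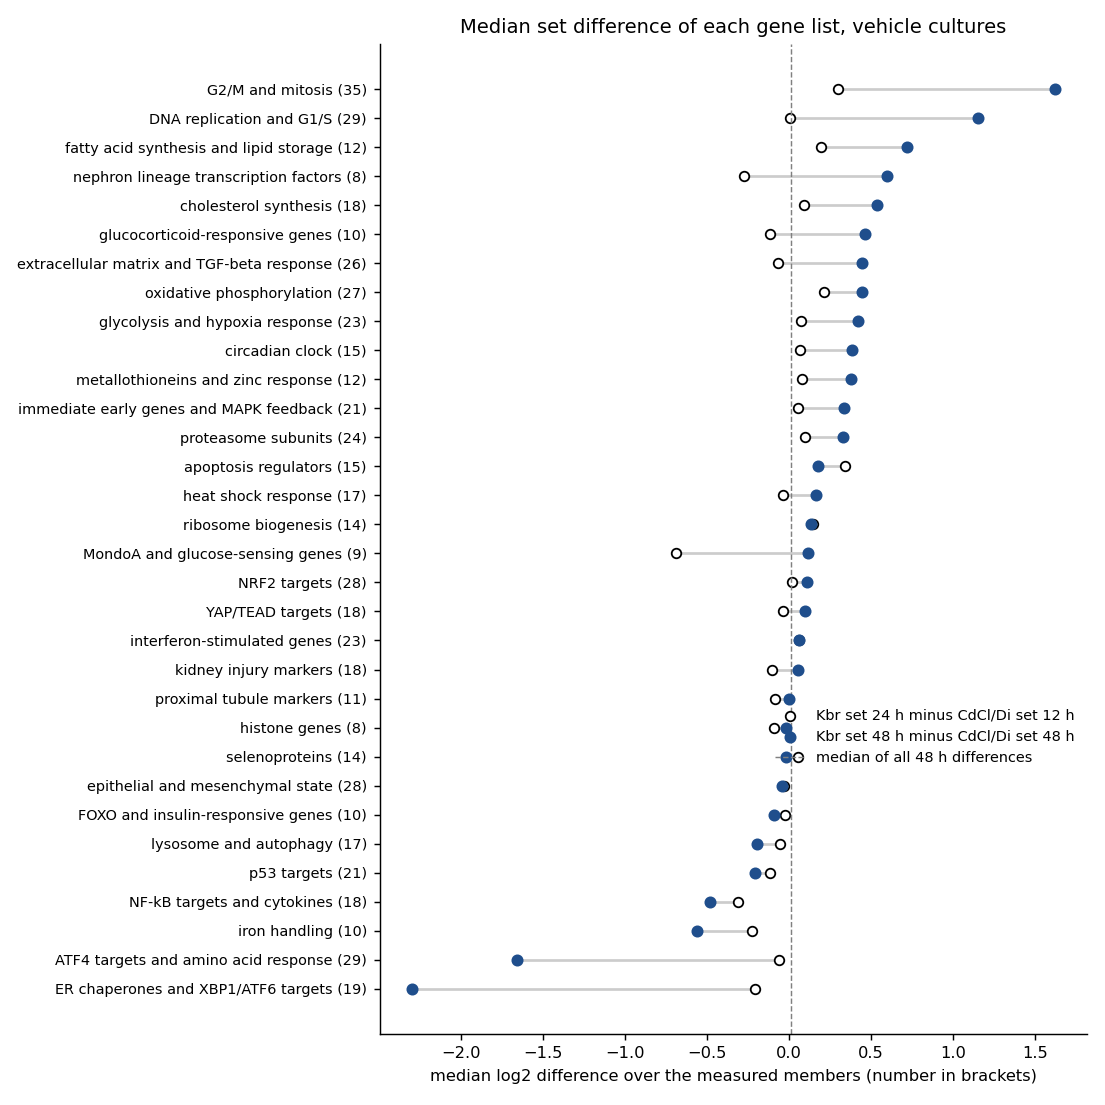
Median log2 difference over the measured members of each gene list with at least 8 of them, for the 48 h vehicle cultures (filled) and the earlier ones (open, 24 h in the Kbr set against 12 h in the CdCl and Di set), with a dashed line at the median of all genes at 48 h. The 2 ER and ATF4 lists lay lowest and the 2 cell cycle lists highest at 48 h, while the 4 open points lay between -0.21 and 0.30.

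Cell cycle genes ran the other way. Of 35 measured G2/M and mitosis genes, 32 were higher in the Kbr set and 0 lower, beside 26.7% and 24.3% of all genes. The median was 1.62, and 31 of the 32 differed at least 2-fold. MKI67, which encodes the proliferation antigen Ki-67, read 7.66, 7.69 and 7.89 in the CdCl and Di set and 10.56, 10.74 and 10.89 in the Kbr set. The groups lay far apart for their spread, at 2.98 ± 0.17 (adjusted p = 3.35e-13), or 7.88-fold. PLK1, a kinase of mitotic entry, differed by 2.46 ± 0.36, BIRC5 (survivin) by 2.07 ± 0.16 and the kinetochore protein CENPF by 2.05 ± 0.15. The mitotic kinase CDK1 differed by 1.34 ± 0.16, with one of its probe sets of the opposite sign. The factor FOXM1, which drives G2/M genes and is on neither list, read 5.85, 5.95 and 5.32 against 8.59, 8.16 and 8.57 (2.73 ± 0.17), and the motor KIFC1 differed by 2.76 ± 0.21. TOP2A, MAD2L1 and BUB3 did not pass, at 0.44, 0.39 and 0.22; for each of them the mean of its probe sets was called higher.

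Replication genes showed the same split. Of 29 measured DNA replication and G1/S genes, 27 were higher in the Kbr set, beside 26.7% of all genes. The median was 1.15, and 20 of the list were called at 2-fold or more. MCM10, which loads onto origins of replication, read 3.54, 3.61 and 3.54 against 6.30, 6.64 and 7.42; with the CdCl and Di arrays under the floor, the fold was at least 6.91. The BLM helicase, also under the floor there, was at least 4.58-fold higher. The other leading differences were those of thymidine kinase TK1 (1.93 ± 0.16), thymidylate synthase TYMS (1.83 ± 0.09) and, smaller, the helicase subunit MCM5 (1.25 ± 0.14). The origin licensing factor CDC6 was the exception: it read 9.13, 9.34 and 9.14 against 7.74, 8.12 and 8.45 and was lower (-1.10 ± 0.22, adjusted p = 1.40e-04). RFC4 did not pass (0.27 ± 0.13). The cyclin CCND1 was higher by 1.38 ± 0.38. The histone gene H2AC6 was lower, at -3.47 ± 0.30.

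Metabolic lists leaned towards the Kbr set by smaller amounts, beside 26.7% of all genes called higher and 24.3% called lower. Of 27 measured oxidative phosphorylation genes, 20 were higher and 0 lower, with a median of 0.44; ATP5MC1 (ATP synthase subunit c) led at 1.60 ± 0.14, ahead of UQCRC1 (1.31 ± 0.13), CYC1 (1.30 ± 0.14) and SDHA (0.96 ± 0.07). Fatty acid synthesis genes were higher in 8 and lower in 2 of 12 (median 0.72). FASN, fatty acid synthase, read 7.72, 7.85 and 7.58 against 9.92, 9.21 and 9.82, a difference of 1.94 ± 0.19, and ACSS2, ACLY and the factor SREBF1 differed by 1.48, 0.92 and 1.02. Cholesterol synthesis genes were higher in 9 and lower in 2 of 18 (median 0.54), among them EBP (1.13 ± 0.11), LSS (0.95 ± 0.11) and HMGCS1 (0.75 ± 0.13). These enzymes answer to the SREBP factors.

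Of 23 measured glycolysis and hypoxia genes, 13 were higher and 5 lower, beside 26.7% and 24.3% of all genes. Pyruvate kinase PKM (1.47 ± 0.12) was the highest of them. The 5 lower genes were VEGFA (-2.02 ± 0.26), ANKRD37 (-1.82 ± 0.27), ADM (-1.57 ± 0.21), NDRG1 (-1.37 ± 0.26) and the glucose transporter SLC2A1 (-0.52 ± 0.13). TXNIP, the glucose-sensing arrestin that falls when MondoA is inactive, read 3.15, 4.34 and 3.38 in the CdCl and Di set and 4.16, 6.24 and 6.71 in the Kbr set. The groups overlapped through the first Kbr replicate and the CdCl and Di mean was under the floor. The difference of 2.08 ± 0.43 (adjusted p = 2.09e-04) was 2.86 without it. In the earlier vehicle cultures TXNIP was high in both sets, at 9.77, 10.02 and 9.83 and 9.11, 9.64 and 8.80. Proteasome subunits were higher in 14 and lower in 1 of 24, with a median of 0.33, PSMD1 (1.23 ± 0.15) furthest.

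Proximal tubule markers did not move as a group, beside 26.7% of all genes called higher and 24.3% called lower. Among 11 measured proximal tubule markers, 2 were higher, 1 was lower and the median was 0.00. CLDN2, the leaky tight junction claudin of the proximal tubule, read 9.21, 9.21 and 9.04 against 11.00, 10.50 and 10.36 (1.47 ± 0.23). CA2, carbonic anhydrase, was higher by 0.59 ± 0.13. ABCB1, the P-glycoprotein pump, was lower, at -0.49 ± 0.18 with overlap. It was not called without the third Kbr replicate (adjusted p = 0.312) or the second CdCl and Di replicate (0.0854), nor when only the 12 vehicle arrays (0.0853) or only the compared groups (0.146) were fitted. A second ABCB1 probe set was lower as well, at -1.23 (limma over probe sets, adjusted p = 1.10e-04). The cystine transporter subunit SLC3A1 (0.00 ± 0.26) and the bicarbonate cotransporter SLC4A4 (-0.54 ± 0.23) did not pass. SLC4A4 was called lower in some other limma fits, as with only the compared groups (adjusted p = 0.0464) or without the second Kbr replicate (0.0266). The water channel AQP3, a collecting duct marker, was higher by 2.19 ± 0.44. Nephron lineage factors leaned towards the Kbr set, with 5 of 8 higher, 1 lower and a median of 0.60. PAX8 (1.11 ± 0.11, with 1 probe set of the opposite sign), CUX1 (1.65 ± 0.24) and IRX3 (0.66 ± 0.17) were higher. HOXD8, under the floor in the Kbr set, was at least 2.25-fold lower.

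Injury markers went both ways, 3 higher and 5 lower of 18, beside 26.7% and 24.3% of all genes. HAVCR1 (KIM-1), a phosphatidylserine receptor shed by injured tubules, read 10.20, 10.38 and 10.17 against 10.98, 11.17 and 11.27 and was higher in the Kbr set (0.89 ± 0.16). VCAM1, an adhesion receptor of maladaptive tubular cells, read 9.25, 9.56 and 9.34 against 6.70, 6.99 and 6.84 and was 5.81-fold lower (-2.54 ± 0.28, adjusted p = 3.90e-08). LCN2 (NGAL) was at least 3.42-fold lower, with the Kbr arrays under the floor, GDF15 was lower at -1.60 ± 0.19 and ANXA1 at -1.74 ± 0.21. Genes of epithelial and mesenchymal state were higher in 5 and lower in 8 of 28 (median -0.04), with both kinds on the low side. The epithelial splicing factor ESRP1 (-2.32 ± 0.27) and E-cadherin CDH1 (-1.12 ± 0.25) were lower, as were the mesenchymal factors ZEB1 (-0.62) and ZEB2 (-0.94). The tubular cadherin CDH6 (1.06 ± 0.22), the junction protein CGN (1.10), keratin KRT8 (0.59) and CLDN4 (0.45) were higher. N-cadherin CDH2 (-0.17 ± 0.15), keratin KRT7 (-0.10 ± 0.24) and vimentin VIM (0.00 ± 0.11) did not pass. A second probe set of CDH2 had the opposite sign, at 0.56 (limma over probe sets, adjusted p = 0.0118). VIM read 13.90, 13.90 and 13.89 against 13.96, 13.75 and 13.98.

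Of 18 measured NF-kB targets and cytokines, 7 were lower and 3 higher in the Kbr set (median -0.48), and 8 did not pass. Over all genes 24.3% were called lower and 26.7% higher. The chemokine CCL20 read 6.81, 7.28 and 6.91 against 4.20, 4.76 and 4.28, a difference of -2.59 ± 0.44. CXCL2 (-1.65 ± 0.31), the NF-kB inhibitor TNFAIP3 (-1.78 ± 0.28) and mitochondrial SOD2 (-1.44 ± 0.19) were lower as well. IL6 read 4.14, 3.98 and 3.70 against 2.51, 2.30 and 4.48, with overlap, and did not pass (adjusted p = 0.187); without the third Kbr replicate it was called lower, at -1.54. Interferon-stimulated genes were higher in 4 and lower in 5 of 23 (median 0.06), IRF1 lower, at -1.56 ± 0.26; IFI44L (0.31 ± 0.57) did not pass.

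Matrix and TGF-beta genes were higher in 12 and lower in 4 of 26 (median 0.44), beside 26.7% and 24.3% of all genes. ID1, a direct target of BMP and TGF-beta receptors, read 8.43, 8.42 and 8.71 against 10.60, 10.91 and 10.65 (2.20 ± 0.22), LTBP2 was higher by 2.11 ± 0.33 and integrin ITGB3 by 1.52 ± 0.16. LOX, the collagen cross-linking enzyme, was lower, at -2.72 ± 0.45. Transglutaminase TGM2, which cross-links matrix proteins, had one of the 15 highest differences, at 2.86 ± 0.28. YAP targets were higher in 6 and lower in 4 of 18, the kinase LATS2 lowest at -1.18 ± 0.15 (a second probe set had the opposite sign) and CCN2 at 0.53 ± 0.20. CCN2, a secreted matricellular protein, was not called when the first or the third replicate of either set was left out, and the balance of the list turned without the first of either: 3 were higher and 4 lower without the first CdCl and Di replicate, and 3 higher and 5 lower without the first Kbr replicate.

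Stress defences other than those of the ER differed less. Their counts stand beside 26.7% of all genes called higher and 24.3% called lower. NRF2 targets were higher in 12 and lower in 4 of 28 (median 0.11), with EPHX1 (1.10 ± 0.19) and glutathione reductase GSR (1.03 ± 0.15) highest, NQO1 at 0.40 ± 0.13 and HMOX1 lower at -0.65 ± 0.19; SLC7A11, the furthest, is also an ATF4 target. HMOX1 was not called without the first Kbr replicate (adjusted p = 0.0516), nor NQO1 without the third (adjusted p = 0.0560). Metallothioneins and zinc genes were higher in 6 and lower in 1 of 12 (median 0.38), MT1X by 0.59 ± 0.14 and MT2A by 0.66 ± 0.12. Heat shock genes of the cytosol were higher in 6 and lower in 1 of 17 (median 0.16); 3 were higher without the third Kbr replicate. The one lower was CHORDC1 (-1.32 ± 0.15), and HSPB1 was higher by 0.61 ± 0.08. Targets of p53 were higher in 4 and lower in 6 of 21, and apoptosis regulators higher in 3 and lower in 3 of 15, with the BH3 protein PMAIP1 (NOXA) at -1.84 ± 0.20, BIRC2 at -1.22 ± 0.10 and BAX at 0.99 ± 0.25.

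The remaining lists were mixed, beside 26.7% of all genes called higher and 24.3% called lower. Iron genes were lower in 6 and higher in 1 of 10 (median -0.56), with the zinc and iron importer SLC39A14 at -1.68 ± 0.21. Glucocorticoid-responsive genes were higher in 6 and lower in 1 of 10 (median 0.46), among them SGK1 (1.12 ± 0.13) and FKBP5 (0.48 ± 0.16), with ERRFI1 lower (-1.08 ± 0.19). FKBP5 was not called without the first replicate of either set or the second of the Kbr set. Its other probe sets differed by 1.13 and 0.98 (limma over probe sets, adjusted p = 1.96e-06 and 3.63e-06). Hydrocortisone was in the medium of both sets. Clock genes were higher in 7 and lower in 5 of 15: PER2 (-1.65 ± 0.35) and BMAL1 (-1.22 ± 0.21) were lower and PER3 (1.09 ± 0.23) and DBP (1.43 ± 0.41) higher, with 4 higher and 3 lower without the first Kbr replicate, DBP then not called (adjusted p = 0.0532). Immediate early and MAPK feedback genes were higher in 9 and lower in 3 of 21, and ribosome biogenesis genes higher in 6 and lower in 1 of 14.

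The earlier vehicle cultures show which set differences were there before 48 h. Their times differ, 24 h in the Kbr set and 12 h in the CdCl and Di set, so set and time cannot be told apart, but they share no array with the 48 h comparison. There 3716 genes were called, or 33.5%, and 565 of them at 2-fold or more. Of the 5659 genes called at 48 h, 2316 were also called in the same direction earlier, which is 40.9% of the 48 h calls and 62.3% of the earlier ones, and 153 were called in opposite directions. A test of the 48 h difference against the earlier one called 2207 genes, or 19.9%, with 1351 above and 856 below; with all kept probe sets of a gene averaged the split was 1138 and 1054.

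**Figure D3:**
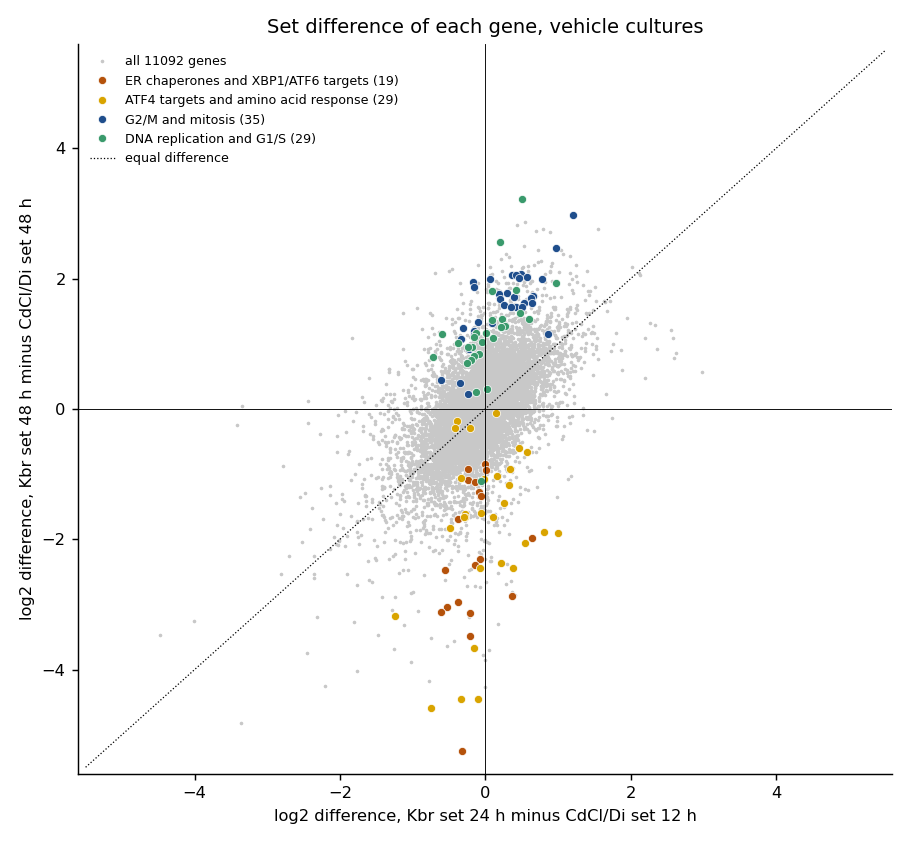
Log2 set difference of each of 11092 genes in the earlier vehicle cultures (x axis, Kbr 24 h minus CdCl and Di 12 h) and at 48 h (y axis), with 4 gene lists in colour and a dotted line of equal difference. The ER and ATF4 lists stretch down to -5.25 and the cell cycle lists up to 3.23 on the y axis while most of their members stay within 1 of 0 on the x axis.

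The ER and cell cycle lists differed more at 48 h than earlier. Of all 11092 genes, 1555 were called higher and 2161 lower in the earlier cultures. The change of difference was called upward for 1351 of all genes and downward for 856. In the earlier cultures 0 of the 19 ER genes was called by limma in either direction (median -0.21), against 19 at 48 h, and the difference between the times was called for 18. SDF2L1 read 7.37, 6.89 and 7.33 at 12 h in the CdCl and Di set and 6.44, 7.05 and 7.11 at 24 h in the Kbr set, where the groups overlapped. Its change of set difference was -4.92 ± 0.76 (adjusted p = 3.25e-05). Of the 29 ATF4 targets, 2 were higher and 1 lower earlier, and 20 had a lower difference at 48 h. Mitotic genes were already higher in 16 and lower in 2 of 35 earlier, with a median of 0.30, and 34 had a higher difference at 48 h. Replication genes were higher in 6 and lower in 3 of 29 earlier (median 0.01), and 24 had a higher difference at 48 h.

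The levels on each array show where the 48 h values lay. The mean of the 19 ER genes was 10.25, 10.26 and 10.25 in the 12 h vehicle cultures of the CdCl and Di set and 12.31, 12.27 and 12.23 at 48 h. In the Kbr set it was 10.12, 10.02 and 10.12 at 24 h and 10.10, 9.96 and 10.07 at 48 h, so the 48 h vehicle of this set stayed at the level of all earlier vehicle cultures. The mean of the 35 mitotic genes was 10.58 ± 0.01 (SD, n = 3) at 12 h and 8.66 ± 0.07 at 48 h in the CdCl and Di set, and 10.83 ± 0.17 at 24 h and 10.23 ± 0.16 at 48 h in the Kbr set. In cultures exposed for 48 h the ER mean was 12.72 with CdCl and 12.70 with Di, and 11.95, 11.33 and 10.31 on the 3 arrays of low Kbr and 11.73, 11.33 and 10.32 on those of high Kbr. The vehicle of the CdCl and Di set was thus above all 6 Kbr-exposed arrays in this mean, and its own exposed cultures were higher still.

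**Figure D4:**
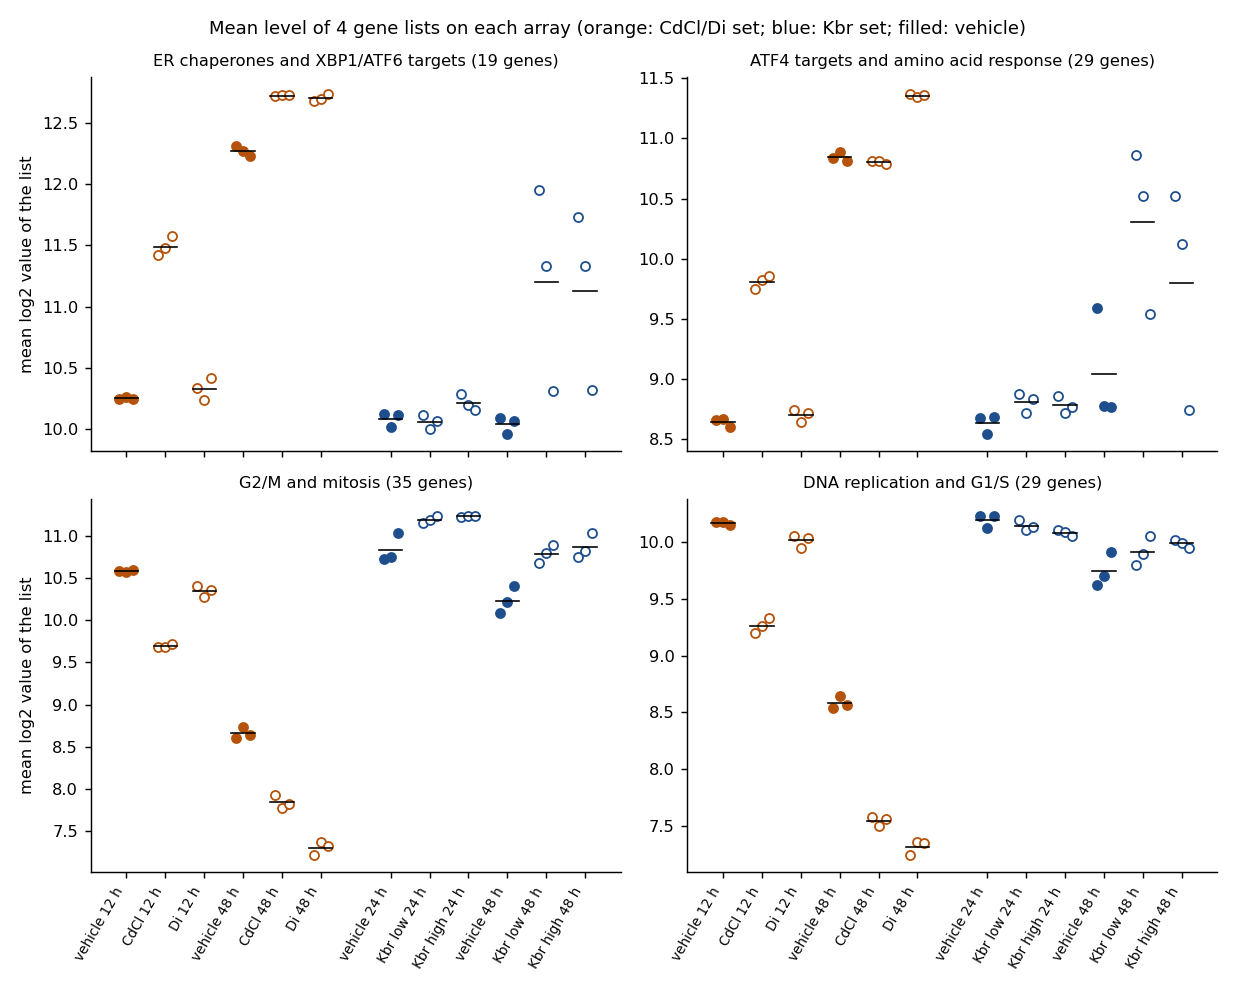
Mean log2 level of 4 gene lists on each of the 36 arrays, by group, with a bar at the group mean; filled points are vehicle cultures, orange the CdCl and Di set and blue the Kbr set. The 48 h vehicle arrays of the CdCl and Di set lay at 12.23 to 12.31 for the ER list and those of the Kbr set at 9.96 to 10.10.

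A smaller group of genes separated the sets on the arrays outside the 48 h comparison. Over the other 30 arrays, which the 48 h comparison did not use, the 15 of one set lay wholly above the 15 of the other for 433 genes, or 3.90%, whatever the treatment or time, 241 higher and 192 lower in the Kbr set. Of the genes called at 48 h, 224 higher and 167 lower ones were among these (6.91%), 0 were separated the opposite way, and 42 separated genes were not called. HINT3, a nucleotide hydrolase, read 9.81, 9.20 and 10.28 against 3.94, 5.67 and 5.19 at 48 h (-4.82 ± 0.44), and the other arrays spanned 8.53 to 9.88 in the CdCl and Di set and 3.87 to 7.05 in the Kbr set. TMEM45A differed by -4.26 ± 0.34 at 48 h and -2.21 ± 0.34 earlier, PABPC1L, a germ cell poly(A)-binding protein relative, by -3.75 ± 0.36 and -2.46 ± 0.36, and ENPP5 by -2.59 ± 0.29 and -2.36 ± 0.29. The kinase FYN, whose Kbr mean was under the floor at both comparisons, was at least 7.81-fold lower at 48 h, and STEAP1, a metalloreductase, by -2.89 ± 0.18 and -1.24 ± 0.18.

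On the high side DCAF15, a substrate receptor of a ubiquitin ligase, read 4.28, 4.23 and 4.29 against 6.60, 5.55 and 6.90, a difference of 2.08 ± 0.42 at 48 h and 2.12 ± 0.42 earlier. CUX1 (1.65 ± 0.24 and 1.63 ± 0.24) and ITGB3 (1.52 ± 0.16 and 1.48 ± 0.16) also held nearly the same difference at both comparisons. Of the mitotic list, 13 genes separated the other arrays, among them MKI67, PLK1 and BIRC5. None of the ER or ATF4 genes did. VCAM1, which differed by -2.54 ± 0.28 at 48 h and -2.82 ± 0.28 earlier, kept its difference between the vehicle cultures but did not separate all 30 arrays.

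**Figure D5:**
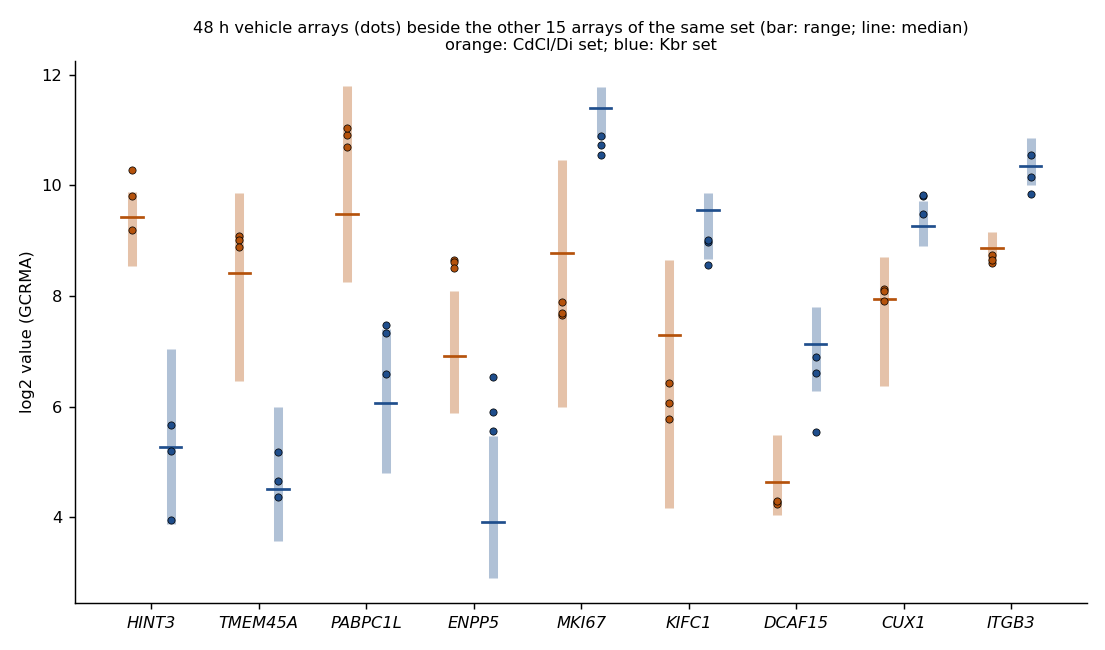
Log2 values of 9 genes that separate the other 30 arrays by set: dots are the 48 h vehicle arrays (n = 3 per set), pale bars the range and short lines the median of the other 15 arrays of the same set. In each gene the orange (CdCl and Di) and blue (Kbr) bars do not overlap, and the dots follow the bars' order.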

How the data were processed

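HK-2 expression was measured on 36 single-colour Affymetrix arrays of biotin-labelled cRNA. The deposited values are log2 expression values; GCRMA was used per the submitters' processing notes (neither version nor settings are stated there). The scale was read from the values, which span 0.714 to 16.1 with array medians of 2.91 to 3.02. GCRMA models background from probe sequence, so low values crowd near a floor and fold changes of low genes are understated. Arrays carry no read depth; 3 per group limits the precision.

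Of 54675 probe sets, 62 controls were set aside, 41091 were paired with 1 gene, 1801 with several and 11721 with none. Probe sets above 4 on at least 3 arrays were kept, and each of 11092 genes was read from its kept 1-gene probe set with the highest mean. Limma 3.58.1 in R 4.3.3 fitted 12 group means on all 36 arrays (lmFit, eBayes, Benjamini-Hochberg, threshold 0.05); the script was checked on simulated data. Where a group mean was under 4, the fold was taken against 4 and is written "at least".

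The comparison, its gene lists and the rule for named genes were chosen with earlier results of these data known. Named are a list of index genes, the 15 furthest genes each way without overlap, the 4 furthest called members of a list, and the furthest genes of the other comparisons; HSP90B1, CALR, SEC61B, XBP1, CDC6, CCND1, TRIB3, CHAC1, NDRG1, SLC2A1 and list members that did not pass were named after their values were seen. Alternatives were another filter, scaling, probe set rule, choice of arrays, array weights, replicate blocks and leaving out each array. Promoter letters are from RefSeq. Replicate numbers were not used as pairs across sets, since deviations of same-numbered 48 h arrays correlated at only 0.052 to 0.102. Within the Kbr set same-numbered vehicle arrays correlated at 0.501 to 0.572, and within the CdCl and Di set at -0.014 to 0.127; a random block within set was an alternative.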

Additional observations from a re-analysis of the deposited data

Results flagged for a closer look

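A test of whether the set difference at 48 h was another than in the earlier vehicle cultures called 2207 genes (limma, adjusted p under 0.05). The earlier cultures were taken at 24 h in the Kbr set and at 12 h in the CdCl and Di set, so a change of difference mixes time and set. The 6 genes whose difference went down most were SDF2L1 (-4.92), ATF3 (-4.35), LAMP3 (-4.27), NUPR1 (-4.12), SCG5 (-3.85) and ALDH1L2 (-3.84). The Kbr means of LAMP3, NUPR1 and SCG5 at 48 h were under the floor of 4, so the size of their change and their place in this order are not settled. Those 6 were not called in the earlier comparison, and among the 4 vehicle groups each was highest in the 48 h vehicle of the CdCl and Di set.

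The 6 whose difference went up most were DDIT4L (3.39), ASB5 (3.18), LINC02532 (2.92), TXNIP (2.77), MCM10 (2.72) and EEIG2 (2.63). Of these, ASB5, a component of ubiquitin ligases, and DDIT4L, a relative of the mTOR inhibitor DDIT4, were called in the earlier comparison and not at 48 h. ASB5 averaged 6.69 at 12 h in the CdCl and Di set against 3.27 at 24 h in the Kbr set, and 3.46 against 3.21 at 48 h. DDIT4L averaged 6.26 against 2.92 earlier and 4.39 against 4.44 at 48 h. ASB5, DDIT4L, TXNIP and MCM10 each had a vehicle group mean under the floor of 4. The size of their change and their place in this order are therefore not settled either.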

How the results depend on the processing

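Over the alternatives run, 4986 to 5952 genes were called at 48 h (5659 as reported), 2799 to 4329 in the earlier cultures (3716) and 1789 to 2946 for the change of difference (2207), where leaving out single arrays gave 4986 to 5477, 2799 to 3560 and 1789 to 2066. With the replicate number as a block across all groups the counts were 5952, 4108 and 2514, and as a random block within each set 5754, 3828 and 2946; the numbers are not shown to pair arrays across the sets, though same-numbered arrays deviate together within the Kbr set. With all kept probe sets of a gene averaged, 52.4% of the earlier calls were higher in the Kbr set, against 41.8% as reported, and 51.9% of the changes of difference were upward, against 61.2%. Genes that separate the sets numbered 433 over the other 30 arrays, 5317 over only the vehicle arrays of the other times, where 3 face 3, and 1116 over only treated arrays. The beta-actin difference was -0.68 over all 18 arrays of each set (permutation test, two-sided, p = 1e-05, the smallest these permutations can give), and -0.71 to -0.55 when single arrays were left out. The permutations took all arrays as independent, but each set is a single experiment. The p-value therefore does not measure the spread between experiments. No called gene reversed among the 134 tried; 21 gene values under an alternative lost their call and 31 gained one. Of the list counts over the 34 lists, 16 moved by more than 1.5 times and 562 did not; all 16 were counts of 8 or fewer in lists other than the ER, ATF4 and cell cycle lists. The YAP list went from 6 higher and 4 lower to 3 and 4 without the first CdCl and Di replicate and to 3 and 5 without the first Kbr replicate.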
